A study of Mus musculus with 2 samples.

Results

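The germline genes examined here are 8 mouse genes, Dazl, Stra8, Rhox5, Usp17la, Ddx4, Sycp3, Mael and Dppa3, that are used in germ cells or the earliest embryo and, for most of them, are held silent elsewhere by DNA methylation. They were chosen as a group with the measured differences between the arrays described next already known. The members' differences are therefore given as a description and support nothing by themselves. A gene counted as measured where a probe set of the deposited table carried its name alone. That held for 6 of the 8, out of 10313 genes measured in all, and each of the 6 had 1 probe set. Sycp3 and Mael had no such probe set and were not measured here.

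Total RNA was hybridised to 2 Affymetrix 3' expression arrays, 1 for control and 1 for lincU-overexpressing embryonic stem cells. Both samples came from the mouse line 46C, grown on feeder cells in medium with 15% serum and 1000 U/ml of leukaemia inhibitory factor, and feeder cells were removed before harvest. LincU is a long noncoding RNA, and the series asks how it acts on naive pluripotency and ERK signalling. How lincU was raised, and whether the cells were a clone or a pool, was not given in the sources used here. With a single array per group there is no replicate check, no test was possible, and every value below describes this pair of arrays. DNA methylation was not measured.

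In mammals, genes needed only for gametes are often marked for silencing around implantation, when the de novo methyltransferases DNMT3A and DNMT3B methylate their promoters. Embryonic stem cells in serum carry most of this methylation, and when it is lost a set of germline promoters becomes active. A variant Polycomb complex, PRC1.6, which is recruited by E2F6 and by MGA with MAX, represses many of the same promoters. Stem cell cultures also hold rare cells that resemble the 2-cell embryo and express multicopy genes of the Usp17l type.

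Because CpG methylation can act only where a promoter has CpG sites, the promoters of the measured members are shown first. The RefSeq promoter table of GRCm38.p6 held 7 of the 8 genes. Dppa3 had no entry. Each run gives the 250 bases before the table's start site, 5′ to 3′ on the strand of the gene, for the 4 members that differed by at least 2-fold between the arrays and for Ddx4, which did not. Capitals mark CpG dinucleotides. Dazl lies at chr17:50293621-50293870 on the minus strand, Stra8 at chr6:34920698-34920947 on the plus strand, Rhox5 at chrX:37754358-37754607 on the plus strand, Usp17la at chr7:104856766-104857015 on the plus strand and Ddx4 at chr13:112652311-112652560 on the minus strand.
Dazl: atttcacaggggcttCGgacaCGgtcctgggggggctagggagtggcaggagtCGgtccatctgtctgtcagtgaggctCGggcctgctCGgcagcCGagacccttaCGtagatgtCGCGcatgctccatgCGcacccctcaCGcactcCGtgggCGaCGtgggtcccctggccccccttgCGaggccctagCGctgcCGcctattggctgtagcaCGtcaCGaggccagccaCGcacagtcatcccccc
Stra8: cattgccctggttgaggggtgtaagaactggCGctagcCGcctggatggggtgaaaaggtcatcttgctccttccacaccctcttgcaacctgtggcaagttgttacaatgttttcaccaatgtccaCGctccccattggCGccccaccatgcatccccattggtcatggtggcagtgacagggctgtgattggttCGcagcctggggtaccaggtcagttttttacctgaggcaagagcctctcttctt
Rhox5: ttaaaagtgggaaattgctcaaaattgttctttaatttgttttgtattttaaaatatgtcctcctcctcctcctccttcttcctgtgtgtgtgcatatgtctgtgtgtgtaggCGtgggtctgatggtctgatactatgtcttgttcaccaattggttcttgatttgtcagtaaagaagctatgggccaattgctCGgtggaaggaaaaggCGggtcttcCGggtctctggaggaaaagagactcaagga
Usp17la: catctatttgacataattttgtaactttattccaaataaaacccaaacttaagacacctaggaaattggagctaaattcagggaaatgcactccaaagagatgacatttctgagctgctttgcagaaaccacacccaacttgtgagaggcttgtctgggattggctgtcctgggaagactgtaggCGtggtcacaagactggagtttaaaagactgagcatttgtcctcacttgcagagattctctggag
Ddx4: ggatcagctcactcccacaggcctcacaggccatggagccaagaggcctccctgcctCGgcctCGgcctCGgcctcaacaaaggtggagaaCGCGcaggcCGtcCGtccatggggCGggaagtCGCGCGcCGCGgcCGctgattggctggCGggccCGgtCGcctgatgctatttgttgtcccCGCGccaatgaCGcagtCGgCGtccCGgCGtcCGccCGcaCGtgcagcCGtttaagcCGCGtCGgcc

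The members' promoters were not of 1 kind. In the full window of the table, which adds 50 bases after the start, Ddx4 had 38 CpGs, and 4.95% of the 32851 windows had as many or more. Dazl had 28 CpGs, a number reached by 14.2% of windows. Mael had 24 and Sycp3 had 15, reached by 20.0% and 34.6% of windows. Stra8 had 10 CpGs, nearer the median of 7 over all windows. Rhox5 had 5 and Usp17la had 1, and 94.6% of windows had at least as many CpGs as Usp17la. The Usp17la window thus holds a single CpG, so that a CpG-rich window at the table's start site is not what the members share. CpGs outside these windows or at other start sites were not counted. No relation between CpG number and signal was tested.

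**Figure D1:**
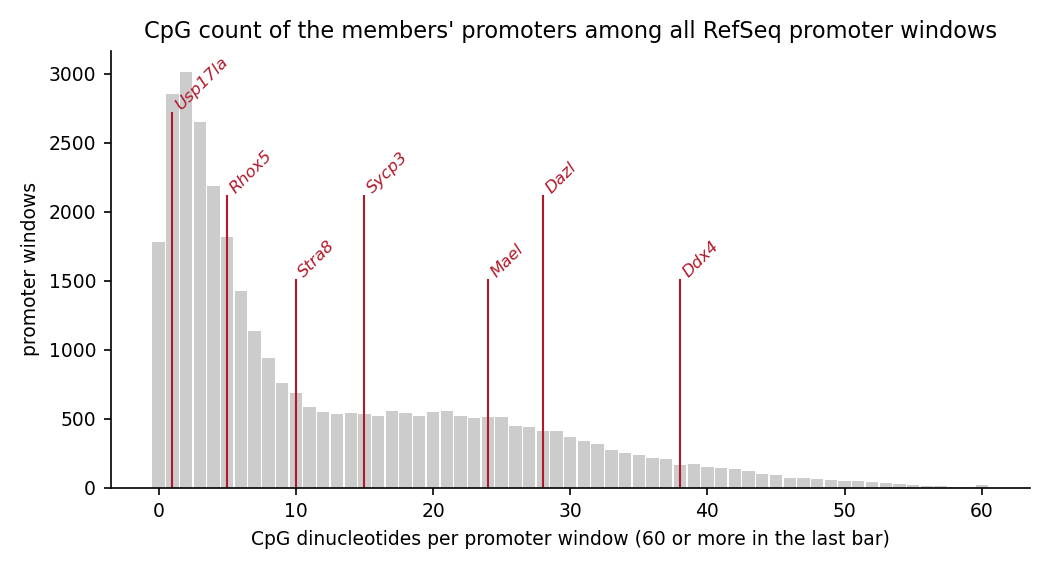
Grey bars count RefSeq promoter windows of 300 bases by their number of CpG dinucleotides, and red lines mark the 7 members with an entry. Ddx4 (38), Dazl (28) and Mael (24) lie in the CpG-rich tail, while Rhox5 (5) and Usp17la (1) lie among the CpG-poor windows.

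Letters that PRC1.6 factors bind were searched on both strands. CACGTG, the E-box of MAX and MGA, occurred in the windows of Ddx4, Sycp3 and Mael, and in 7.15% of all windows. GCGGGA, the core of E2F sites, occurred in the same 3 promoters and in 20.0% of all windows, and 1.99% of all windows held both. In Ddx4 the E-box began 29 bases before the start and the E2F core 136 bases before it. Sycp3 carried a pair of E-boxes, which began 64 and 43 bases before the start. The E-box and the E2F core each contain a CpG, so these matches are also CpG sites. The shares over all windows were not matched for CpG number. The windows of Dazl, Stra8, Rhox5 and Usp17la held neither string of letters.

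Of the 6 measured members, 3 had at least 2-fold higher signal on the overexpression array, 1 had at least 2-fold lower signal and 2 differed by less. Usp17la, Stra8 and Dazl were higher, Rhox5 was lower, and Ddx4 and Dppa3 were the pair that stayed within 2-fold. Genes were compared if bright, which means that the higher of the 2 signals was at or above the median of its array, a log2 signal of 7.96 for control and 7.90 for overexpression. Of 5609 bright genes, 1.53% were at least 2-fold higher, 1.30% at least 2-fold lower and 2.83% one or the other. The members were chosen by this contrast, so nothing is read from their count against these shares. All 6 members were above the median on both arrays, so none entered the comparison through 1 array alone. They were also all above the floor of 5.73 (control) and 5.65 (overexpression), the level to which dimmer values were raised.

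**Figure D2:**
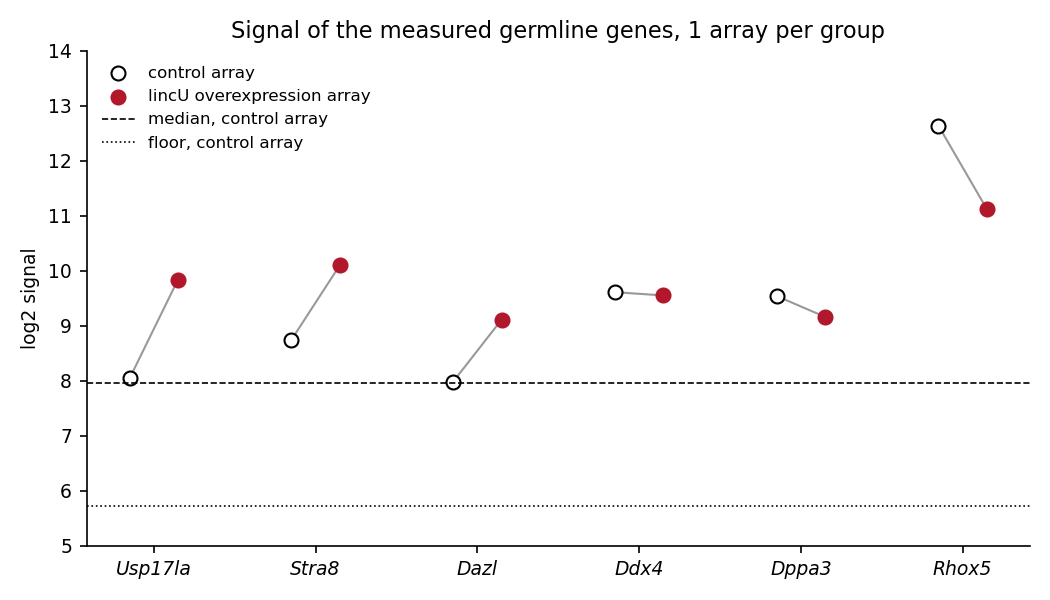
Open circles show the log2 signal of each measured member on the control array and red circles that on the lincU overexpression array, with 1 array per group and no error bars. Usp17la, Stra8 and Dazl are higher with overexpression, Rhox5 is lower, and Dazl and Usp17la start just above the dashed median of the control array.

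Stra8, which cells switch on under retinoic acid as they enter meiosis, gave log2 signals of 8.74 (control) and 10.10 (overexpression). The log2 difference was 1.36, or 2.56-fold, and ranked 37th from the highest among bright genes. Dazl encodes an RNA-binding protein that germ cells need to enter and complete their development. Its log2 signals were 7.98 (control) and 9.11 (overexpression), which is a log2 difference of 1.13, or 2.19-fold, ranked 62nd. Dazl is the member nearest the threshold on the high side. With a pseudocount of 64 in place of the floor its difference was 0.96, just under 2-fold, while Stra8 stood at 1.24 and Usp17la at 1.59.

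Ddx4, the germ cell RNA helicase known as VASA, had nearly equal log2 signals, 9.61 (control) and 9.55 (overexpression). Its difference of -0.06 ranked 3286th from the highest, close to the middle of the 5609 bright genes. Ddx4 and Dazl, both textbook germ cell markers with CpG-rich promoters, thus had different values on the same pair of arrays. Whether this contrast holds beyond these arrays was not tested. Mael and Sycp3, which act in transposon silencing and in the synaptonemal complex, have no value to set beside them.

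Usp17la, a deubiquitinase gene also known as Dub1, had the largest difference of the members in either direction. The log2 signals were 8.04 (control) and 9.84 (overexpression), which is a log2 difference of 1.81, or 3.50-fold, ranked 12th from the highest. RefSeq lists 6 genes or pseudogenes named Usp17l, all on chromosome 7. Signal from such near-identical copies may be read by the same probes, so the value is that of a probe set and may not be that of Usp17la alone.

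Rhox5, also called Pem, is an X-linked homeobox gene that is expressed in stem cells, extraembryonic tissues and the gonads. It was the only measured member past 2-fold in the lower direction. Its log2 signals were 12.64 (control) and 11.12 (overexpression), which is a log2 difference of -1.53, so that control was 2.89-fold higher. Rhox5 ranked 16th from the lowest among bright genes. Dppa3, also called Stella, protects the maternal genome from demethylation in the zygote and marks primordial germ cells and naive stem cells. Its log2 signals were 9.54 (control) and 9.16 (overexpression), which is a log2 difference of -0.38. RefSeq also lists a pseudogene of Dppa3, whose transcripts the probe set might read.

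No member had a further probe set against which to check its value. The spread between probe sets was taken from 1732 other genes that had at least 2 bright ones, where the SD of the log2 difference within a gene was 0.23. It was 0.34 where the mean log2 signal was under 9, the range of Dazl and Usp17la, 0.23 between 9 and 11, the range of Stra8, Ddx4 and Dppa3, and 0.17 at 11 or more, the range of Rhox5. This SD holds no variation between cultures. It is the spread between probe sets on the same 2 arrays and not the whole technical spread. Nothing is read from the members' differences against it.

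**Figure D3:**
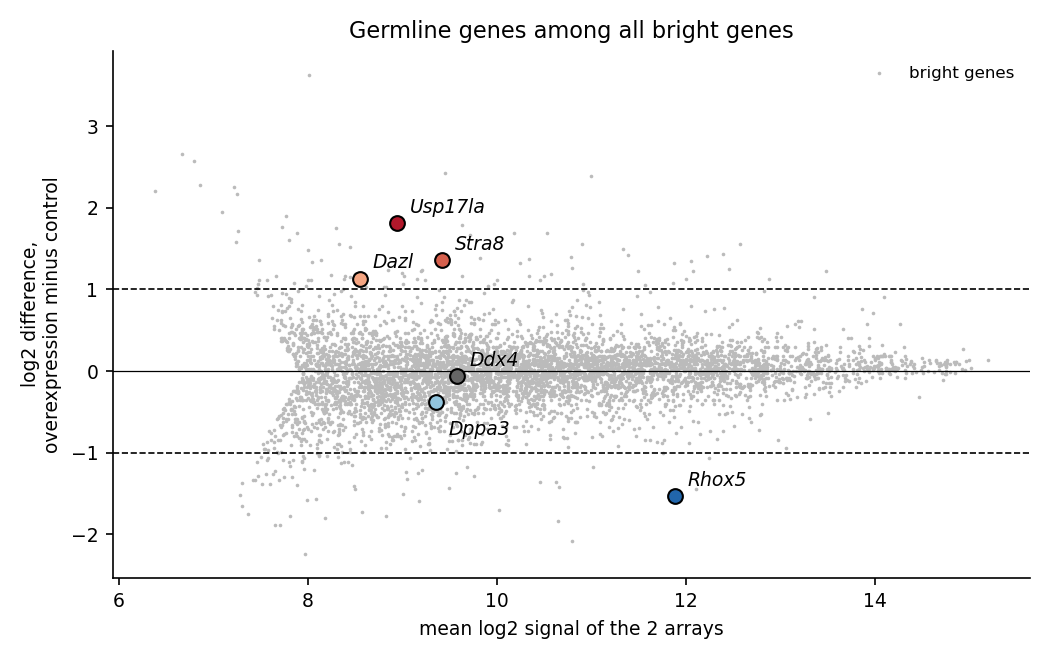
Each grey point is a bright gene, placed by its mean log2 signal and by its log2 difference, overexpression minus control, and the dashed lines mark 2-fold. Coloured points are the 6 measured members. Usp17la, Stra8 and Dazl lie above the upper line, Rhox5 lies below the lower one, and Ddx4 and Dppa3 lie inside the main cloud.

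Signals of neighbouring genes were set beside each member, since stretches of chromosomes 14 and 6 differ between these arrays. No member lies on chromosome 14. For Stra8 on chromosome 6, the 10 nearest bright genes, 5 on each side from Chchd3 to Trim24, had a median log2 difference of 0.03 and ranged from -0.31 to 0.34. The neighbours of Usp17la ranged from -0.87 to 0.25 with a median of 0.00, and those of Rhox5 from -0.27 to 0.81 with a median of 0.03. None of these 30 genes differed by 2-fold. The neighbours of Dazl had a median of 0.01, and the nearest bright gene before it, Apobec2, was the only one past 2-fold, at -1.21. After subtraction of the neighbours' median, a step chosen after seeing the data, Usp17la stood at 1.81, Stra8 at 1.33, Dazl at 1.12 and Rhox5 at -1.56. As measured, these 4 genes stood at 1.81, 1.36, 1.13 and -1.53. The part of position in these differences was not tested.

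Dppa3 was the exception in position. It lies in a stretch of chromosome 6, from Rad18 to Resf1. In this stretch 81 of 97 bright genes were higher with overexpression, against 2814 of all 5609 bright genes, and the median was 0.37. Its ends followed no rule independent of these data, so the values given for it are a description. Dppa3 had the 4th lowest difference of the 97 genes. Of its 10 nearest bright genes 9 were higher, including Nanog, the next bright gene on its other side, at 0.57. With the median of the rest of the stretch subtracted, Dppa3 stood at -0.76, compared with -0.38 as measured. Stra8 lies outside the stretch, among 178 bright genes with a median of 0.02.

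**Figure D4:**
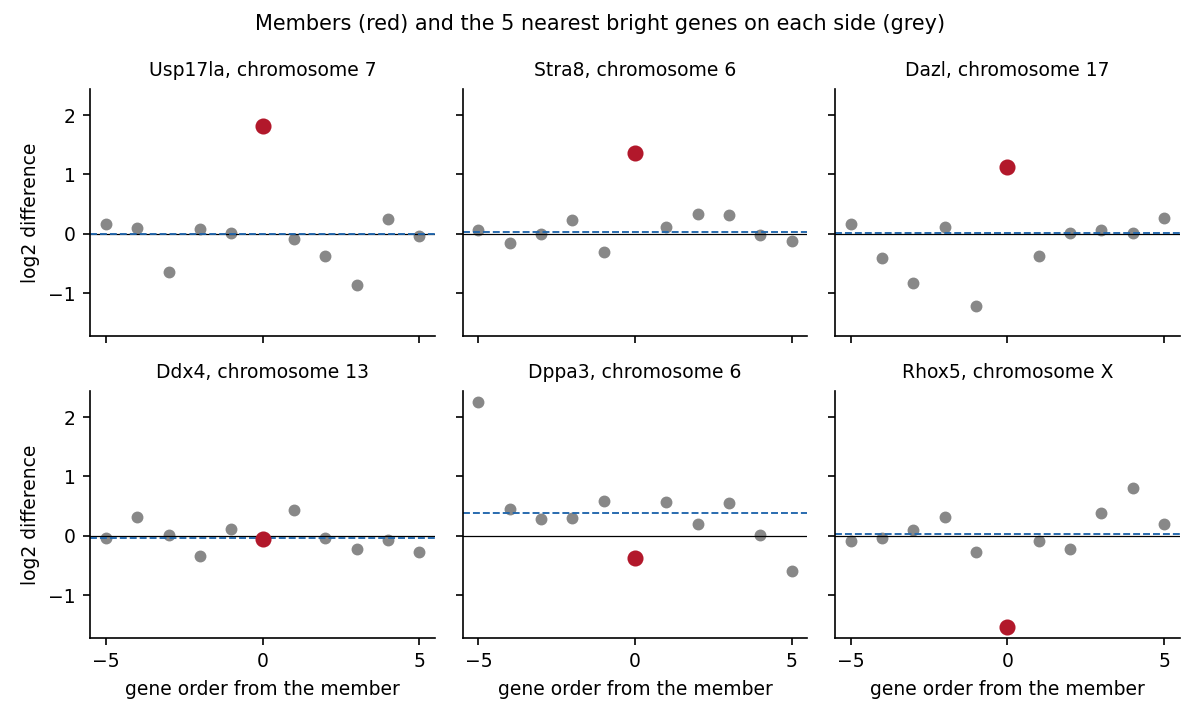
Each panel shows the log2 difference of a member (red) and of the 5 nearest bright genes on each side (grey), in gene order, with the neighbours' median as a dashed line. The neighbours of Usp17la, Stra8, Dazl, Ddx4 and Rhox5 centre near 0, while those of Dppa3 centre on 0.38 with Dppa3 below them at -0.38.

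Other germline genes with promoters known or thought to be methylated gave a mixed picture. Of 31 genes on a list that leaves out the members, 17 were measured, with a median log2 difference of 0.12, and over all 10313 measured genes the median was 0.00. Only 5 were bright, of which 4 were higher and 1 lower, while 2814 of all 5609 bright genes were higher. Under the alternatives for floor, scaling and probe sets, the median of the whole list, members included, ran from 0.00 to 0.31. Stk31, a testis kinase gene with a Tudor domain, had log2 signals of 7.55 (control) and 9.10 (overexpression) and differed by 1.55, on a probe set type that can read related transcripts. Tex14, a gene of the bridges between germ cells, went from 7.88 to 8.55, a difference of 0.67. Both Stk31 and Tex14 were bright through the overexpression array alone, where they were high, so the count of higher genes rests in part on the brightness rule. Gtsf1l, related to a piRNA factor, went the other way, from 10.27 to 9.10 or -1.18. Zfp42, which encodes the stem cell protein REX1, differed by 0.31, and D1Pas1 by 0.12. Of the 12 dim genes, 4 were at the floor on both arrays, where no difference can be seen.

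Meiosis genes other than Stra8 were mostly dim. Of 25 listed, 11 were measured and 2 were bright. These were Psmc3ip, a recombination cofactor gene, at 0.22, and Syce2, which encodes a part of the synaptonemal complex, at -0.18. Of the 11 measured, 7 were higher, 2 lower and 2 at the floor on both arrays, with a median of 0.26. Msh5, Prdm9 and Tex12, among the higher ones, were under the floor in control. The piRNA and germ granule list had no bright gene beside Dazl and Ddx4, and its 4 other measured genes were dim. The list of 2-cell-like genes likewise had no bright gene beside Usp17la. Of its 5 other measured genes 2 were at the floor on both arrays. The remaining 3, Arg2, Zfp352 and Tcstv1, were higher, but each was under the floor in control and so was seen on the overexpression array alone. Over all 10313 measured genes 3934 were higher, 4346 lower and 2033 at the floor on both arrays. In the Rhox cluster the only other gene measured was Rhox6, which was dim, at 6.70 on the control array and under the floor on the other. Rhox6 therefore stood at -1.05 with the floor as a bound, the same direction as Rhox5.

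Genes of primordial germ cell specification, many of which are also pluripotency genes, were spread around 0. Without Dppa3, 14 bright genes had a median of 0.03, with 7 higher, 7 lower and none past 2-fold on the probe set that stood for the gene. A further bright probe set of Lin28a, which encodes an RNA-binding protein of stem cells, was past it at -1.45, against -0.53 on the brighter one. Ifitm3, a surface marker of early germ cells, differed by -0.73, and Tfap2c, a transcription factor gene needed to specify them, by -0.43 and -0.79 on its 2 probe sets. Esrrb differed by 0.65 and 0.17 on its 2 probe sets, and Tcl1 by 0.61. Prdm14 was not measured here.

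Genes that write, read, remove or otherwise serve DNA methylation were within 2-fold. Of 11 bright ones, 9 were lower and 2 higher, with a median of -0.14, while 2795 of all 5609 bright genes were lower. The 9 include methyl-CpG readers, the eraser Tet1 and Ahcy, at -0.12, and several differed by less than the spread between probe sets. Dnmt3b, which encodes a de novo methyltransferase, had log2 signals of 12.74 (control) and 11.91 (overexpression) and differed by -0.83. Dnmt3a differed by between -0.92 and -0.45 on its 4 probe sets, and their cofactor gene Dnmt3l by -0.30. The maintenance methyltransferase gene Dnmt1 differed by -0.07 and 0.01 on its 2 probe sets, and Uhrf1, whose product brings DNMT1 to replicating DNA, by 0.22 and 0.07. The chromatin remodeller gene Hells differed by 0.26. Tet1, which encodes an enzyme that oxidises methylcytosine, differed by -0.08 on its brighter probe set and by 0.30 on the other. The de novo enzymes thus had lower signals on the array on which Stra8 and Dazl were higher, Ddx4 was at -0.06, and Rhox5 and Gtsf1l were lower. The part of the enzymes in these differences was not tested.

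PRC1.6 and heterochromatin genes were close to 0, with a median of -0.01 over 17 bright genes, none past 2-fold. Mga stood at 0.16 and -0.06 on its 2 probe sets, Max at -0.07, Pcgf6 at 0.00 and Setdb1, an H3K9 methyltransferase gene, at -0.16. Of the bright genes Wdr5 was the farthest from 0, at 0.50 on each of its 2 probe sets. Among the dim ones Ehmt2, which encodes the H3K9 methyltransferase G9a, had log2 signals of 7.72 (control) and 6.50 (overexpression) and differed by -1.22. Suv39h2, Yaf2 and Tfdp1 stood at -0.28, -0.30 and -0.22. E2f6 and L3mbtl2 were not measured here.

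**Figure D5:**
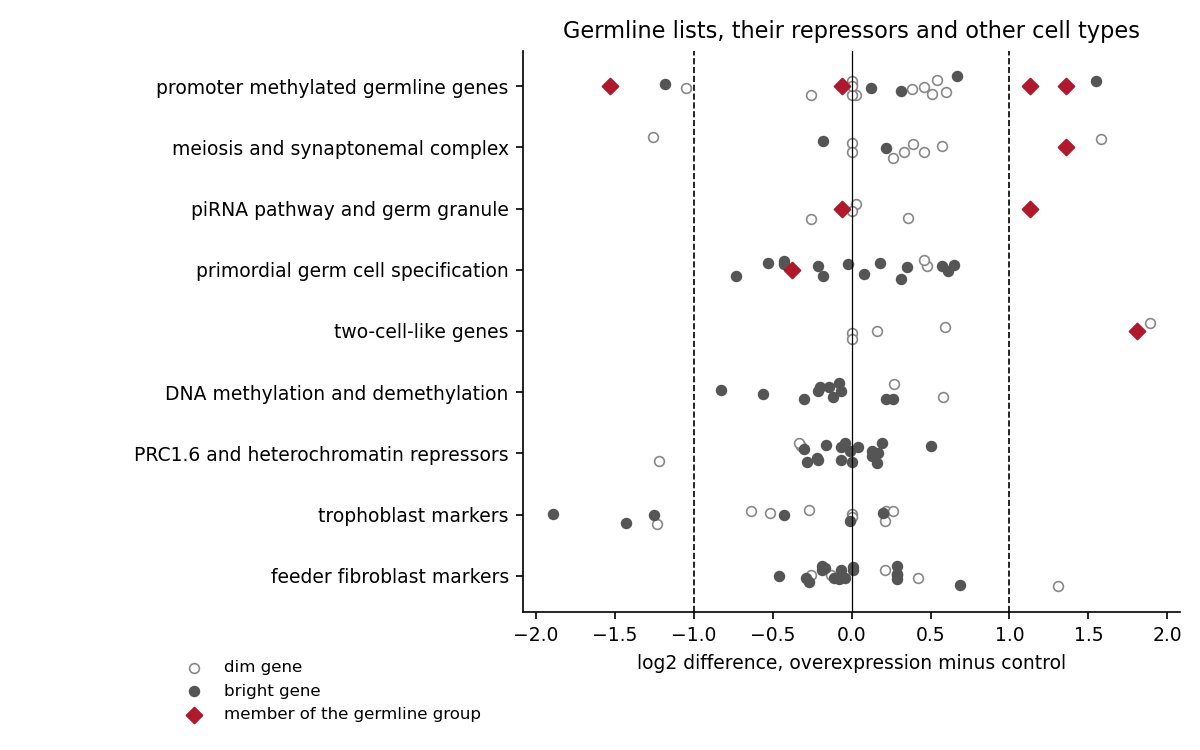
Each row is a gene list and each point the log2 difference of a gene, overexpression minus control, with filled circles for bright genes, open circles for dim genes and red diamonds for members. Dashed lines mark 2-fold. Genes at the floor on both arrays are drawn at 0. The de novo methyltransferase genes are the lowest filled circles of the DNA methylation row, at -0.83 and -0.56.

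Markers of other cell types were read because Rhox5 is also active in extraembryonic lineages and because feeder cells were in the culture. Of 17 trophoblast markers 15 were measured and 6 bright, and 5 of these were lower. Cdx2 stood at -1.89, Krt8 at -1.43, Krt18 at -1.25, Tfap2c at -0.43, Igf2 at -0.01 and the higher one, Eomes, at 0.20. Krt8 and Krt18 encode keratins of simple epithelia in general. Over all 15 measured markers 9 were lower, 4 higher and 2 at the floor on both arrays. Over all genes, 4346 of 10313 measured and 2795 of 5609 bright genes were lower. On the overexpression array Cdx2 itself was below the median. The summed linear signal of the list, which includes both of these keratin genes, was 5720 (control) and 3680 (overexpression). The trophoblast gene Elf5 was under the floor on both arrays. Rhox5 was thus lower on the array with lower Cdx2 and keratin signal, and the part of these markers in its difference was not tested. Fewer cells of a type and less RNA per cell cannot be told apart in such bulk samples. Of 8 bright endoderm markers, 4 were higher and 4 lower, with Lama1 at 1.04, Amn at -0.76, Col4a1 at 0.68 and Col4a2 at -0.31. Lama1 and Col4a1 were bright through the overexpression array alone and Amn through the control array alone, so these counts rest in part on the brightness rule. Their list's summed signal was 10400 (control) and 9730 (overexpression), and Afp was under the floor on both arrays. The brightest gene of this list, Sparc at 12.28 (control) and 12.08 (overexpression), is also on the feeder fibroblast list, so the sum is not of endoderm alone. Feeder fibroblast markers had summed signals of 40200 (control) and 39700 (overexpression). Of 22 measured, 17 were bright, with a median of -0.07. Although feeder cells were removed, Col1a2 stood at 10.37 (control) and 10.26 (overexpression) and Col3a1 at 10.31 and 10.27. How much of this signal came from remaining feeder cells was not tested. Defining stem cell genes were bright on both arrays, with Pou5f1 at 13.55 (control) and 13.34 (overexpression) and Sox2 at 13.41 and 13.59 on the log2 scale. Housekeeping genes had a median of 0.01.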

How the data were processed

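Each deposited value is the log2 signal of a probe set on 1 array. The tools MAS5 and affy are listed without version or role in the submitters' processing notes. What the arrays were scaled to was not given in the sources used here. A log2 scale was inferred from the range of the values, with a maximum of 15.26.

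Of 16994 probe sets, 15273 carried 1 gene name in the platform annotation, 501 several and 1156 none, and 64 were controls. Symbols were updated by gene ID with RefSeq (GRCm38.p6), which matched 15252. Values were used without further scaling. Those under an array's 25th percentile were raised to it, and the probe set with the highest mean signal stood for its gene. A difference is overexpression minus control, and 2-fold is a log2 difference of 1. Positions, gene order and promoters came from RefSeq. Python 3.11.15 with pandas 2.3.3 and statsmodels 0.14.6 was used. The floor, the choice of probe set and the 2-fold calls were tried on simulated arrays. Changes were planted there only in genes well above the control median. Signals nearer to it, such as those of Dazl, Usp17la and Stra8 in control, were not covered. The planted changes were also larger than the differences of Dazl and Stra8. The simulated noise was smaller than the spread between probe sets at mean log2 signals under 9. The position, list and promoter steps were not simulated.

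The members and lists were chosen with earlier results of these data known. The ends of the chromosome stretches likewise followed no rule independent of these data. The genes named were the members, up to 4 bright genes of each list with the largest difference, a fixed set of methylation and repressor genes, and position neighbours. Other names were chosen after their values were seen. The precision is limited by the number of arrays, 1 per group.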

Additional observations from a re-analysis of the deposited data

How the results depend on the processing

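No paired analysis was possible because each group had a single array. Every measured member kept its direction under all alternatives run, with Usp17la between 1.59 and 1.86, Stra8 between 1.24 and 1.41, Dazl between 0.96 and 1.19, Rhox5 between -1.56 and -1.47, Ddx4 between -0.07 and -0.01 and Dppa3 between -0.76 and -0.33. The value of -0.76 for Dppa3 came with the median of its chromosome 6 stretch or of its 10 nearest bright genes subtracted. For every member, subtraction of the chromosome median or of the neighbours' median was chosen after seeing the data. With brightness at the 75th percentile 1 member, Stra8, was left as 2-fold higher, and over all compared genes 37 were higher and 15 lower. With no brightness rule 153 genes were higher and 226 lower, with a 1.5-fold threshold 261 and 375, and with a pseudocount of 64 only 39 were lower. Medians of 4 lists moved with the floor. With no floor the Rhox cluster stood at -1.67, 2-cell-like genes at 0.97 and trophoblast markers at -0.52. At a 40th percentile floor the Rhox cluster stood at -0.76, and 2-cell-like genes, trophoblast markers and meiosis genes at 0.00. Without Rhox5 the Rhox cluster is Rhox6 alone, at -1.05. In the 250 bases before the start alone, 6.02% of promoters held CACGTG and 16.9% held GCGGGA. The Dazl and Usp17la signals in control were near the array median, and dim germline genes are limited by signal over background.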

Other observations

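Some dim germline and 2-cell-like genes, picked after their values were seen, differed between the arrays without passing the brightness rule. Tex11, an X-linked meiosis gene, had log2 signals of 5.86 (control) and 7.44 (overexpression) and differed by 1.58. Rec8, which encodes the meiotic cohesin subunit, went the other way, from 6.91 in control to under the floor, a floor-bound difference of -1.26. It lies on chromosome 14 among 137 bright genes, from Tspan14 to Tmtc4, whose median was -0.59, and the part of this stretch in its value was not tested. Arg2, an arginase gene on the 2-cell-like list, was under the floor in control and at 7.62 in overexpressing cells, and its 2 probe sets gave floor-bound differences of 1.89 and 1.23. Zfp352, a marker of 2-cell-like cells, was also under the floor in control on both of its probe sets and at 6.32 and 6.33 in overexpressing cells, with bounds of 0.59 and 0.60.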
